A study of Mus musculus with 10 samples.

Results

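The genes described here encode proteins that the liver secretes into plasma. They include 4 heavy chain genes of the inter-alpha-trypsin inhibitor family (Itih1, Itih2, Itih3 and Itih4) and Ambp, the partner of the first 3. The others are 3 neighbouring serpins (Serpina3k, Serpina3m and Serpina3n), the leucine-rich glycoprotein gene Lrg1 and the ceruloplasmin gene Cp. These 10 genes were taken by symbol from the deposited count table, which holds 19764 genes. All 10 were found, and all 10 were among the 12558 genes with enough counts to test. Whole liver RNA was sequenced from female mice of 2 genotypes that both carried the floxed glucocorticoid receptor gene. GRMAC mice also carried 1 copy of LysM-Cre, a Cre driven by the lysozyme gene and active in macrophages, neutrophils and other myeloid cells; GRflox littermates served as controls without Cre. Every mouse had fasted for 8 h from ZT12, the start of the active phase, and there were 5 libraries of each genotype. Age and strain are not given in the sources used here, and no fed mice or mice with Cre alone are part of the comparison. It asks which liver transcripts differ when myeloid cells are made to lack the receptor.

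Inter-alpha-trypsin inhibitors are built from heavy chains joined to bikunin, a small protease inhibitor cut from the Ambp precursor, through a sugar chain. The protein encoded by Tnfaip6 can move heavy chains onto hyaluronan and so stabilise extracellular matrix. Serpins trap a target protease by a change of their own shape; the mouse Serpina3 genes are a multiplied family related to human antichymotrypsin. Hepatocytes make all of these proteins, and several of them belong to the acute phase response, in which interleukin 6, STAT3, C/EBP factors and glucocorticoids raise the output of plasma proteins.

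The counts were checked first. Libraries held 23258884 to 27692528 counts, and values are CPM, counts scaled to library size after TMM, a method that balances libraries on their common genes. GRflox libraries held 63.8 to 81.2 CPM of Nr3c1, which encodes the receptor, and GRMAC libraries 74.7 to 94.0 CPM; 1 count per gene in whole liver does not show a deletion in myeloid cells. The lysozyme gene Lyz2 had means of 32.3 ± 5.51 (GRflox) and 21.1 ± 5.21 CPM (GRMAC; −0.62 ± 0.16, adjusted p = 0.114 with edgeR). In the authors' deposited table Lyz2 was lower (−0.62, adjusted p = 0.00907). The Cre of GRMAC mice is driven by the lysozyme gene itself, and why Lyz2 was lower was not tested. Hepatocyte RNA was plain in both genotypes, with the albumin gene Alb at means of 99957 ± 7628 and 103999 ± 9030 CPM (SD, n = 5). Nothing in the labels says that each library is a separate mouse, so p-values measure the spread between libraries. In whole liver, fewer cells of a type cannot be told apart from less RNA per cell.

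The members lie in 2 gene clusters and 4 single places of mm10 (coordinates of the count table, first base counted as 1). On chromosome 14, Itih4 (NM_001289632, plus strand, 30886476 to 30901986), Itih3 (NM_008407, minus strand, 30908574 to 30923587) and Itih1 (NM_001306078, minus strand, 30929180 to 30943289) follow each other with gaps of 6587 and 5592 bases. On chromosome 12, Serpina3k (NM_011458, 104338486 to 104345739), Serpina3m (NM_009253, 104387164 to 104394257) and Serpina3n (NM_009252, 104406708 to 104414329) lie on the plus strand with gaps of 41424 and 12450 bases. Itih2 (NM_010582) is on chromosome 2 from 10094591 to 10130683 and Ambp (NM_007443) on chromosome 4 from 63143279 to 63154142, both on the minus strand. Lrg1 (NM_029796) is on the minus strand of chromosome 17 from 56119678 to 56121946, and Cp (NM_001276250) on the plus strand of chromosome 3 from 19957054 to 20009750.

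Promoter sequences from RefSeq (GRCm38.p6) were found for 8 of the 10 members; Serpina3k and Serpina3m had no entry. The 250 bases before each start site were searched on both strands for motifs of factors known for acute phase genes. The STAT motif TTCNNNGAA was in 7.02% of all 32851 promoters of the table, the C/EBP-like motifs TTNNGNAAT and TTGCNNAA in 10.2% and 9.56%, and the glucocorticoid receptor core ACANNNTGT in 5.84%. Over the 9 windows of the members (Cp has 2 start sites) these motifs were found in 1, 2, 2 and 1 windows. The promoters of Itih4 and Serpina3n are shown because they hold the STAT and glucocorticoid receptor matches among the members; matches are in capitals, and a match is a description of letters, not of binding.

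Itih4, chr14:30886226-30886475, plus strand, STAT match TTCCGAGAA: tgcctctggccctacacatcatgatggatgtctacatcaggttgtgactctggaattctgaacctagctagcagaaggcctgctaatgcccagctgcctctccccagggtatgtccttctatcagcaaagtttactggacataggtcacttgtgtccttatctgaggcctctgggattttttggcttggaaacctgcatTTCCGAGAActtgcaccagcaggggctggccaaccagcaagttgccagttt
Serpina3n, chr12:104406458-104406707, plus strand, C/EBP-like matches ATTTCATAA and ATTTCCTAA and receptor core ACAGCTTGT: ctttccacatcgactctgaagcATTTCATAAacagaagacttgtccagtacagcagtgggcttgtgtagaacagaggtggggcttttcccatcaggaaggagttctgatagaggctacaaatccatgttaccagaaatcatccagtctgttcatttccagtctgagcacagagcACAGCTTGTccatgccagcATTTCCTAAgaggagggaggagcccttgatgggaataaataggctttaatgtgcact

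Counted from the start site, the STAT match of Itih4 lies from −51 to −43. In Serpina3n the receptor core match and the nearer C/EBP-like match lie from −76 to −68 and from −57 to −49, and they do not overlap. None of these motifs was found in the windows of Itih3, Ambp or Lrg1.

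Compared per transcript length, the members spanned a wide range of levels in GRflox liver. Whether intronic reads were counted is not given in the sources used here, so these levels and their order assume counts over exons. Serpina3k was highest, at 3995 ± 1089 CPM per kb of transcript, followed by Ambp (1713 ± 131) and Itih4 (634 ± 43.5). Itih2 (397 ± 16.3 CPM per kb) and Itih3 (396 ± 25.8) overlapped across libraries. Lrg1 (270 ± 51.3), Serpina3m (260 ± 10.9), Itih1 (242 ± 13.6) and Cp (241 ± 11.98) formed a run in which each gene overlapped its neighbour, and Serpina3n was lowest at 157 ± 5.92 CPM per kb (SD, n = 5). The order of the 3 highest genes and the last place of Serpina3n held in GRMAC liver too, where neither the top 3 nor Serpina3n overlapped their neighbours. Together the 10 genes took 1.44% to 1.92% of all counts in GRflox libraries and 1.75% to 2.12% in GRMAC libraries, and Serpina3k alone took 0.517% to 1.03% and 0.786% to 1.14%.

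**Figure D1:**
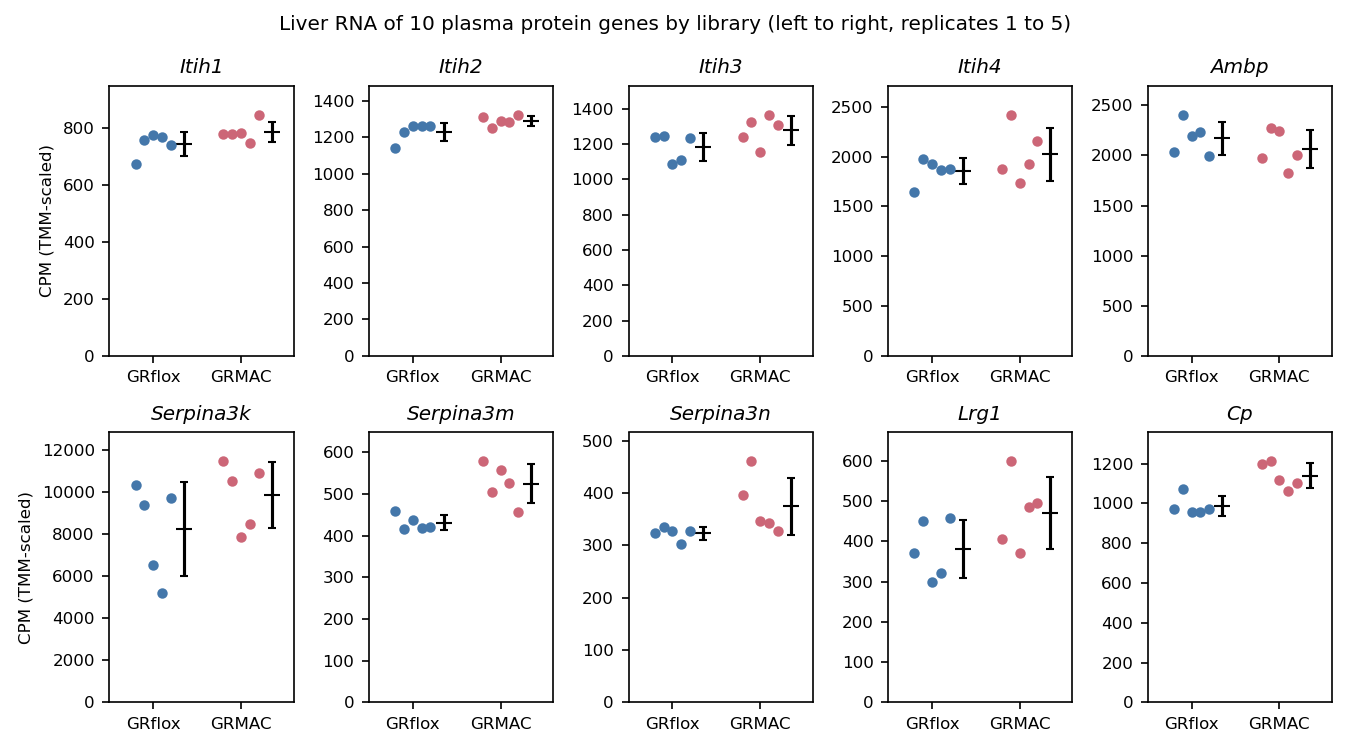
TMM-scaled CPM (vertical axes, from 0, a separate scale per gene) of the 10 genes in the 5 GRflox (blue) and 5 GRMAC (red) libraries; black marks show the mean and SD. Serpina3m and Cp are separated between the genotypes except for 1 pair of libraries each, and Serpina3k spreads most within GRflox.

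None of the 10 genes passed over all genes with edgeR's quasi-likelihood test at an adjusted p under 0.05, a threshold that 22 genes (0.175% of those tested) passed. In the authors' deposited table of DESeq2 results, Serpina3m and Cp (2 of the 10) passed as higher in GRMAC, where 3.33% of its genes passed in either direction and 1.84% as higher. Fold changes were positive for 9 of the 10, Ambp being the exception, against 6307 of all 12558 genes, and their median was 0.17 on the log2 scale against 0.00 over all genes. At an unadjusted edgeR p under 0.05 there were 3 members (Serpina3m, Serpina3n and Cp), where 16.3% of all genes lie. No member had genotypes without overlap in CPM, which 4.05% of all genes did. Limma-voom called none of the 10.

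Among the heavy chains, Itih1 and Itih2 encode the chains that share 1 bikunin in the main plasma complex. Itih1 was at 673.0, 758.5, 775.9, 770.2 and 741.3 CPM in GRflox libraries 1 to 5 and at 779.3, 778.1, 784.5, 748.9 and 846.5 CPM in GRMAC libraries 1 to 5. The low GRflox value was that of library 1, and the other GRflox libraries lay within or just below the GRMAC range. The log2 fold change was 0.08 ± 0.06 SE (adjusted p = 0.552, edgeR), and 0.05 without GRflox 1. GRflox values of Itih2 were 1144, 1227, 1260, 1261 and 1260 CPM and GRMAC values 1312, 1251, 1288, 1285 and 1323 CPM. GRflox 1 was again lowest, and GRMAC 2 alone lay within the GRflox range. Its difference was 0.07 ± 0.06 (adjusted p = 0.587, edgeR), and 0.05 without GRflox 1. With a 95% interval from −0.06 to 0.21, Itih2 was the member measured most tightly.

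Itih3 encodes the heavy chain of pre-alpha-inhibitor. It was at 1242, 1246, 1090, 1110 and 1232 CPM in GRflox libraries 1 to 5 and at 1238, 1324, 1158, 1365 and 1306 CPM in GRMAC libraries 1 to 5. GRflox 3, GRflox 4 and GRMAC 3 were the low libraries, and the genotypes overlapped (0.11 ± 0.07, adjusted p = 0.462, edgeR). Itih4, whose chain is secreted without bikunin and is an acute phase protein, was at 1642, 1973, 1926, 1867 and 1872 CPM in GRflox and at 1878, 2418, 1739, 1925 and 2155 CPM in GRMAC. GRMAC 2 held the highest value and GRflox 1 the lowest. The fold change of 0.12 ± 0.09 (adjusted p = 0.531, edgeR) became 0.06 without GRMAC 2 and 0.08 without GRflox 1.

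Ambp, the precursor of bikunin and of alpha-1-microglobulin, a haem-binding lipocalin, was at 2032, 2404, 2198, 2233 and 1992 CPM in GRflox and at 1977, 2274, 2246, 1828 and 2000 CPM in GRMAC. The ranges overlapped, with GRMAC 1 and GRMAC 4 below every GRflox library and GRflox 2 above every GRMAC library. The difference was −0.07 ± 0.08 (adjusted p = 0.707, edgeR, 95% interval −0.26 to 0.11). Because a ratio within a library does not depend on scaling, each heavy chain was also set against Ambp. The Itih4 chain carries no bikunin, so its ratio does not compare partners. Mean log2 ratios were higher in GRMAC by 0.16 for Itih1, 0.15 for Itih2, 0.18 for Itih3 and 0.19 for Itih4. The Itih3 difference was 0.12 without GRMAC 4 and 0.084 without GRflox 4 and GRMAC 4. For Itih4 the ratio was −0.23 ± 0.09 in GRflox and −0.03 ± 0.20 in GRMAC (SD, n = 5), with GRMAC 3 at −0.37 below every GRflox library. None of these passed a two-sided exact permutation test adjusted over the 6 ratios examined (p from 0.0794 to 0.151, adjusted p = 0.206 to 0.226). The 4 ratios share Ambp, so they are not independent of each other.

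**Figure D2:**
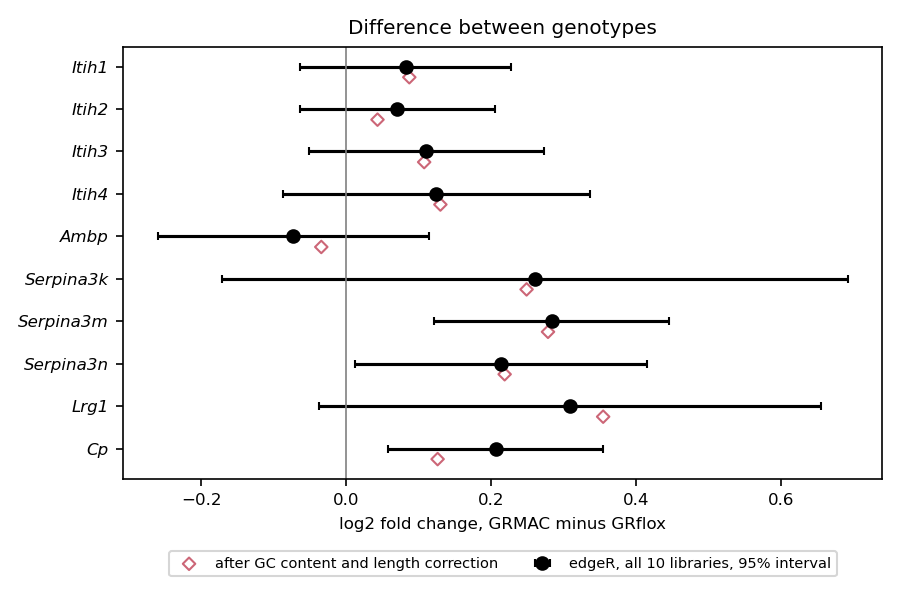
Log2 fold change of GRMAC against GRflox (horizontal axis) for each gene, with 95% intervals from the standard error (black, edgeR, 5 libraries a genotype), and the value after correction for GC content and transcript length (red diamonds). Intervals of Serpina3m, Serpina3n and Cp lie above 0 before adjustment over all genes, and the value of Cp moves from 0.21 to 0.13 with the correction.

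Serpina3m had the lowest p of the members. It was at 459.8, 416.8, 436.6, 419.1 and 421.3 CPM in GRflox libraries 1 to 5 and at 577.7, 504.4, 556.5, 525.5 and 456.4 CPM in GRMAC libraries 1 to 5. All GRMAC libraries but the last were above every GRflox library, and GRMAC 5 lay between GRflox 1 and the other GRflox libraries. The means were 430.7 ± 18.01 and 524 ± 47.2 CPM (SD, n = 5), or 0.28 ± 0.07 as a log2 fold change. Its adjusted p was 0.0895 with edgeR, short of the threshold, and 0.00698 in the authors' deposited table, past it. With 1 library left out at a time the edgeR value ranged from 0.25 to 0.33, with adjusted p from 0.0613 to 0.203.

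Serpina3n encodes an acute phase serpin known to inhibit cathepsin G and granzyme B. It was at 324.1, 335.8, 326.8, 303.0 and 327.0 CPM in GRflox and at 396.7, 460.5, 345.7, 342.6 and 328.2 CPM in GRMAC. GRMAC 1 and GRMAC 2 stood above the rest, while GRMAC 5 lay within the GRflox range. The spread was wider in GRMAC (SD 54.5 CPM) than in GRflox (SD 12.2 CPM); this difference in spread was not tested. The fold change was 0.21 ± 0.09 (adjusted p = 0.244, edgeR), and 0.13 without GRMAC 2. In the authors' deposited table it was 0.21 with adjusted p = 0.207.

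Serpina3k, also called contrapsin or kallikrein-binding protein, was the most abundant member per transcript length and varied most among GRflox libraries. Its libraries were at 10329, 9378, 6511, 5182 and 9687 CPM in GRflox and at 11435, 10527, 7867, 8489 and 10879 CPM in GRMAC. GRflox 3 and GRflox 4 were low, as were GRMAC 3 and GRMAC 4 within their genotype. The coefficient of variation was 27.3% in GRflox and 15.9% in GRMAC, against 19.0% and 18.9% for Lrg1, 4.18% and 8.998% for Serpina3m and 3.78% and 14.5% for Serpina3n. The fold change of 0.26 ± 0.19 (adjusted p = 0.525, edgeR) was 0.13 without GRflox 4 (adjusted p = 0.684) and 0.35 without GRflox 1.

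Serpina3k and Serpina3m are the closest copies among the 3 serpins, and how reads matching several copies were counted is not given in the sources used here. Of the 1610 windows of 50 bases in the Serpina3m transcript, 16% were also in Serpina3k, and 19.1% were in some other Serpina3 gene; the shares were 14% for Serpina3k and 6.9% for Serpina3n. Counts of Serpina3m, Serpina3k and Serpina3n are therefore uncertain. These shares do not bound the error, since Serpina3k is far higher than its neighbours and 12.8% of its windows are also in Serpina3m. Across the 10 libraries, with genotype means removed, Serpina3m and Serpina3k had Pearson's r of 0.00 (permutation within genotype, p = 0.991, adjusted p = 0.991) and Spearman's rho of 0.09 (p = 0.788, adjusted p = 0.909). Without GRflox 4 and GRMAC 3, the libraries farthest from the median, r was 0.07. The log2 ratio of Serpina3m to Serpina3k was −4.21 ± 0.42 in GRflox and −4.22 ± 0.30 in GRMAC (exact permutation test, p = 0.937), and that of Serpina3n to Serpina3k −4.62 ± 0.39 and −4.71 ± 0.23 (p = 0.659; SD, n = 5; adjusted p = 0.937 and 0.79).

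Lrg1, whose protein binds endoglin and the TGF-beta receptor complex and is also made by neutrophils, had the largest fold change of the members. It was at 370.6, 451.5, 300.3, 322.0 and 457.2 CPM in GRflox and at 404.8, 598.6, 370.0, 486.4 and 495.4 CPM in GRMAC. GRMAC 2 was highest, GRflox 3 lowest, and the genotypes overlapped widely. The fold change was 0.31 ± 0.15 (adjusted p = 0.332, edgeR), and it ranged from 0.21 without GRMAC 2 to 0.39 without GRMAC 3. Neutrophil markers were close to absent: 11 of the 12 listed were in the table, the highest count of any of them in a library was 17 (S100a8), and the 1 that passed the filter, Mmp9, had means of 0.461 ± 0.187 and 0.452 ± 0.111 CPM.

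Cp encodes ceruloplasmin, the copper-carrying ferroxidase of plasma, which oxidises iron for loading onto transferrin. It was at 973.8, 1074, 959.4, 957.7 and 973.4 CPM in GRflox and at 1200, 1211, 1119, 1064 and 1103 CPM in GRMAC. The other GRflox libraries lay below all GRMAC libraries, and GRflox 2 lay just above GRMAC 4. The means were 988 ± 49.0 and 1139 ± 63.8 CPM (SD, n = 5). As a log2 fold change this was 0.21 ± 0.06, short of the threshold with edgeR (adjusted p = 0.155). In the authors' deposited table Cp passed (0.20, adjusted p = 0.0197). Cp is the member with the lowest GC content, 41.9%, lower than all but 9.22% of tested genes, and the 772 genes within 1 point of it had a median fold change of 0.06. After correction for GC content and transcript length the value was 0.13 (adjusted p = 0.40, edgeR). That of Serpina3m stayed at 0.28 (adjusted p = 0.116, edgeR). That of Lrg1, the member with the highest GC content (63%), went from 0.31 to 0.35, and that of Ambp from −0.07 to −0.03. The correction used transcript sequences, so it too assumes counts over exons.

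**Figure D3:**
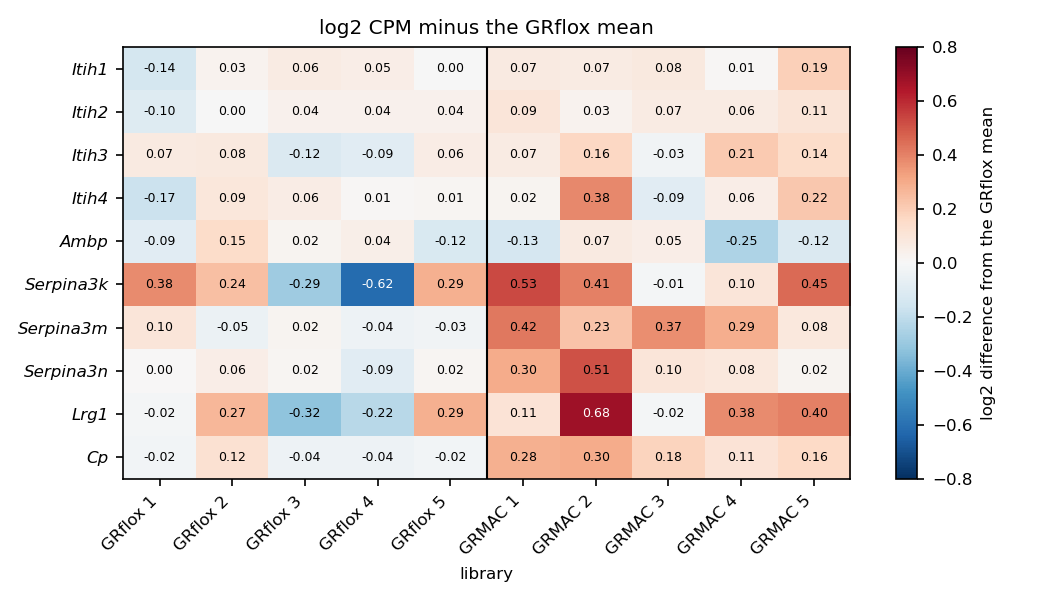
Log2 CPM of each gene (rows) in each library (columns) minus the mean of the 5 GRflox libraries; red is higher and blue lower, with the value in each cell. GRflox 3 and 4 are low in Serpina3k, Lrg1 and Itih3, and GRMAC 2 holds the highest values of Itih4, Serpina3n, Lrg1 and Cp.

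The members did not vary as 1 block between libraries of the same genotype. Over the 45 pairs, with genotype means removed, 26 correlations were positive and 19 negative, with a median r of 0.10, and none passed a permutation test adjusted over the pairs (smallest adjusted p = 0.284). The pair most alike was Itih3 and Lrg1 (r = 0.86, permutation p = 0.00924; rho = 0.70, p = 0.0422, adjusted p = 0.284 for r), with r of 0.89 in GRflox and 0.83 in GRMAC, and 0.73 without GRflox 3 and GRMAC 3. Serpina3n and Cp followed in order of p (r = 0.75, permutation p = 0.0126; rho = 0.87, p = 0.00326; adjusted p = 0.284 for r and 0.147 for rho), and r was 0.77 without GRMAC 2 and GRMAC 5. Itih1 and Itih2, chains of 1 complex on different chromosomes, had r = 0.81 (permutation p = 0.0238, adjusted p = 0.357) and rho = 0.79 (p = 0.0138). That r was 0.52 without GRflox 1 and GRMAC 5, so it rests in part on those libraries. The neighbours Itih1 and Itih3 had r = −0.41 (permutation p = 0.307, adjusted p = 0.621), with rho = −0.47 (p = 0.186) and r = −0.56 without the same libraries.

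**Figure D4:**
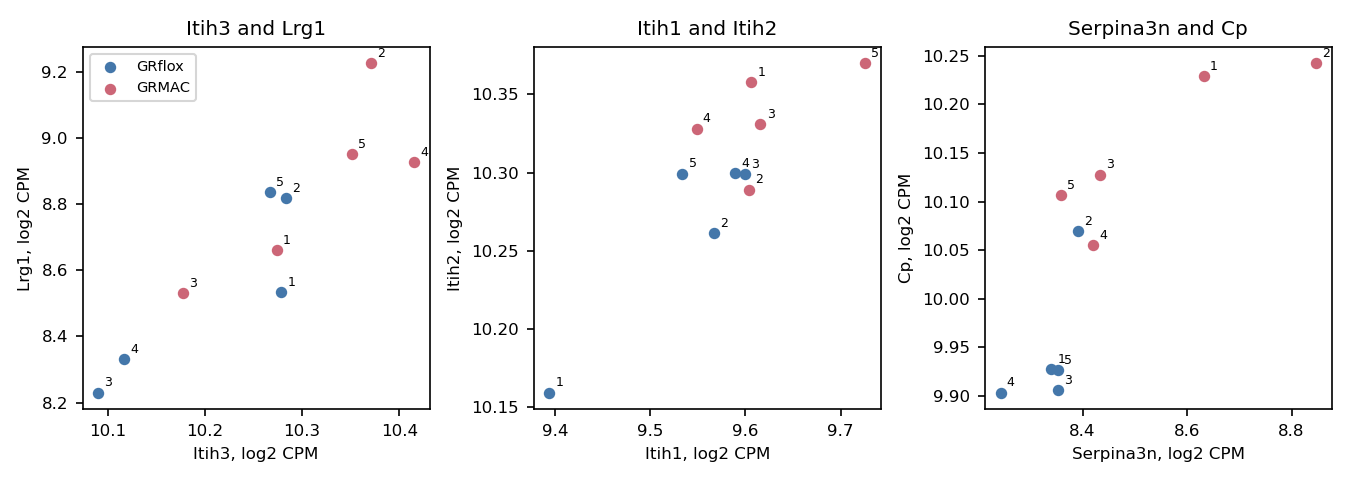
Log2 CPM of 3 pairs of genes in the 10 libraries (blue GRflox, red GRMAC, numbered by replicate; axes do not start at 0). Itih3 and Lrg1 are high and low in the same libraries of both genotypes, GRflox 1 sets the low end of Itih1 and Itih2, and GRMAC 1 and 2 set the high end of Serpina3n and Cp.

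Likeness to other genes was ranked over 11567 genes with a mean of at least 1 CPM, by Pearson's r of genotype-centred log2 CPM over the 10 libraries, with no test since the genes were picked for the highest values. For Serpina3n these were Edf1 (r = 0.93), Spp2 (0.93), Uhrf2 (0.92), Ap3s1 (0.91) and Gabarap (0.91). For Itih3 they were Gtf2ird1 (0.95), Arhgap23 (0.95), Maged1 (0.93), Efnb1 (0.92) and Arl4a (0.91). For Serpina3k, added after its values were seen, they were Lacc1 (0.96), Spin1 (0.94), Dock1 (0.94), Cmc4 (0.93) and Cbwd1 (0.93). No gene was on more than 1 of the lists.

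Partners of the inter-alpha inhibitors were then read from the same fit. Of 11 tested genes of this kind, none passed with edgeR or in the authors' deposited table, and their median was 0.01. At an unadjusted edgeR p below 0.05, where 16.3% of all genes lie, there was 1 of the 11. Itih5, the heavy chain gene of other tissues, had means of 12.8 ± 1.49 and 12.9 ± 2.11 CPM. Tnfaip6 had 1 to 14 counts per library and lay below the filter, as did the hyaluronan synthase genes Has1 and Has2. Stab2, a hyaluronan scavenger receptor of sinusoidal endothelium, had the lowest p (0.23 ± 0.08, adjusted p = 0.204), followed by Has3 (0.41 ± 0.20) and the hyaluronidase gene Hyal1 (−0.27 ± 0.13).

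Of 11 other tested genes of the serpin A family, 9 had positive and 2 negative fold changes (median 0.12), and none passed with either tool. None was at an unadjusted edgeR p under 0.05, where 16.3% of all genes lie. The antitrypsin genes Serpina1a to Serpina1e, also close copies, were between −0.10 and 0.12. Serpina6, which encodes the glucocorticoid carrier of plasma, had means of 117 ± 39.5 and 134 ± 27.5 CPM (0.19 ± 0.24). Serpina7, the thyroxine-binding globulin gene, was at 5.63 ± 1.74 and 11.05 ± 6.54 CPM (0.97 ± 0.44, adjusted p = 0.315 with edgeR). Serpina10, an inhibitor of coagulation, was at 0.34 ± 0.16, and Serpina11 at 0.26 ± 0.13.

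Other plasma protease inhibitors had a median of 0.21 over 17 tested genes, with 14 positive. None passed with edgeR, and 6 had an unadjusted p under 0.05, all higher, where 16.3% of all genes lie in either direction. The authors' deposited table called 3 as higher, against 1.84% of its genes: the fetuin genes Ahsg (0.20, adjusted p = 0.00822) and Fetub (0.21, adjusted p = 0.0103) and the kininogen gene Kng1 (0.22, adjusted p = 0.0353). Means of Fetub were 508 ± 30.3 and 586 ± 17.4 CPM. The antithrombin gene Serpinc1 (−0.01 ± 0.06) and the complement inhibitor gene Serping1 (0.04 ± 0.07) were near 0. Classical acute phase genes had a median of 0.25 (21 tested, 19 positive); none passed with edgeR, 4 had an unadjusted p under 0.05, and 4 passed in the authors' deposited table, all higher (Fga, Fgb, Fgg and Apcs). Some others of them were near 0: Hp, the haptoglobin gene (−0.05 ± 0.09), Crp (0.02 ± 0.10) and Lbp (0.02 ± 0.06). Saa1 (0.68 ± 0.48), Orm3 (0.48 ± 0.28) and Orm2 (−0.52 ± 0.29) were farther from 0 with wide errors, and they passed with neither tool.

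Genes of the interleukin 6, STAT3 and C/EBP pathway had a median of 0.01 over 18 tested genes, with 10 positive and 8 negative, and none passed with edgeR. At an unadjusted p under 0.05, where 16.3% of all genes lie, 3 were higher and 3 lower. Il6 had 0 to 2 counts per library, and the receptor genes Il6ra (−0.00 ± 0.17) and Il6st (0.07 ± 0.08) and Stat3 (0.17 ± 0.07, adjusted p = 0.25 with edgeR) did not pass. The C/EBP genes had opposite signs: Cebpa was at 0.32 ± 0.10, Cebpb at −0.49 ± 0.19 and Cebpd at −0.50 ± 0.20 (adjusted p = 0.162, 0.242 and 0.249 with edgeR).

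Around ceruloplasmin, none of 14 genes of copper and iron handling passed with either tool (median 0.09). An unadjusted edgeR p under 0.05, held by 16.3% of all genes, was held by 3 of the 14. Atp7b, the copper pump that loads ceruloplasmin, was at 29.1 ± 2.17 and 31.4 ± 3.52 CPM (0.11 ± 0.08), the iron exporter gene Slc40a1 at 0.35 ± 0.13, the extracellular superoxide dismutase gene Sod3 at 0.22 ± 0.08, and the copper chaperone gene Atox1 at −0.19 ± 0.07. Trf, the transferrin gene, was at −0.05 ± 0.10. Of 9 genes of endoglin and TGF-beta signalling, set beside Lrg1, none passed with edgeR (2 at an unadjusted p under 0.05) and Tgfbr1 was higher in the authors' deposited table (33.0 ± 1.69 and 39.3 ± 2.99 CPM, 0.25, adjusted p = 0.0252); Eng was at −0.00 ± 0.10.

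Cell type markers were read beside these results. Summed over the list, 8 hepatocyte markers held 117443 to 136422 CPM in GRflox libraries and 115336 to 138817 CPM in GRMAC libraries (median fold change 0.07), and 1 of them, Apob, passed as higher in the authors' deposited table. Sums of 10 Kupffer cell markers were 247 to 325 CPM in GRflox and 286 to 406 CPM in GRMAC, with a median fold change of 0.08. Of these fold changes 7 were positive and 3 negative. Cd5l (0.55 ± 0.13) passed as higher in the authors' deposited table, while Marco (−0.85 ± 0.40, adjusted p = 0.327 with edgeR) passed with neither tool. The 8 sinusoidal endothelial markers summed to 260 to 297 CPM and 208 to 349 CPM, the 9 tested stellate cell markers to 319 to 390 CPM and 315 to 426 CPM, and the 4 tested monocyte markers to 5.52 to 7.94 CPM and 6.66 to 7.24 CPM. None of the marker genes passed with edgeR. At an unadjusted p under 0.05, where 16.3% of all genes lie, there were 1 hepatocyte, 1 Kupffer cell, 2 monocyte and 1 endothelial marker. The 2 monocyte markers had opposite signs, Ccr2 at 0.62 ± 0.21 and Itgam at −0.52 ± 0.21. Their part in the members' differences was not tested.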

How the data were processed

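Polyadenylated liver RNA was sequenced in paired ends in 5 libraries from GRflox and 5 from GRMAC mice. The authors deposited read counts per gene, whole numbers in 1 column per library, per the file headers. HISAT2 2.1.0, DESeq2 1.24.0 and mm10 are named in the submitters' processing notes; the counting program, strand setting and treatment of reads with several matches are not given in the sources used here. A second deposited table gives the authors' log2 fold changes and adjusted p-values, per the file headers; its 10 columns per library were not used. Columns were matched to samples by genotype and number in the titles.

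Genes with few counts were removed by filterByExpr (0.0348% of counts), libraries scaled by TMM, and all genes fitted with edgeR 4.0.16 (quasi-likelihood, robust; R 4.3.3), adjusted by Benjamini-Hochberg. Standard errors come from the fold change and F statistic, and 95% intervals from them with 8 degrees of freedom. Log2 CPM used a prior count of 2. Ratios were compared by two-sided exact permutation over 252 assignments (smallest p 0.00794). Transcript lengths and GC content came from GENCODE M21, available for 99.9% of tested genes. Alternatives were DESeq2 1.42.0, limma-voom 3.58.1, other scalings and filters, a replicate block, a GC and length correction (splines with 5 degrees of freedom) and left-out libraries. The scripts were tested on 1 set of simulated counts with 200 changed genes. At 1.5-fold, edgeR recovered 64.5% of them, DESeq2 72.6% and limma-voom 58.1%. Of the genes called, 5.75%, 13.9% and 3.55% were false. The largest member fold, 1.24 for Lrg1, is below those simulated.

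The members and gene lists were chosen with earlier results of these data known. Named genes were the 10 members, Nr3c1, Lyz2, genes from those called or the 3 with the lowest p in each list, and the 5 genes most like Serpina3n and Itih3. Not every gene picked by the rule for the lists is named. Other list members are named as examples chosen after their values were seen. 1 gene of the lists is not reported here.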

Additional observations from a re-analysis of the deposited data

Results flagged for a closer look

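Of 108 groups of 5 values examined, 5 held 1 library far from the other 4, and chance gives about 5 (1 in 20). GRflox 1 held 1144 CPM of Itih2 (others of its genotype 1227 to 1261). GRflox 2 held 1074 CPM of Cp (others 958 to 974), and this library is the one that overlaps with GRMAC. The kininogen gene Kng1 was at 2563 CPM in GRMAC 1 (others 2145 to 2242). In GRflox 4 the apolipoprotein gene Apoa1 was at 5233 CPM (others 6878 to 7290) and Marco, a macrophage scavenger receptor gene, at 13.97 CPM (others 4.06 to 6.05).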

How the results depend on the processing

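The 22 genes called over the whole table became 424 with DESeq2, 8 with limma-voom, 34 when unfiltered, 8 when robust estimation was off, 9 after correcting for GC and length, 68 without GRflox 4 and GRMAC 4 and 241 at adjusted p under 0.1; the cause was not tested. Single libraries moved it from 5 to 47 (9, 6, 5 and 5 without GRflox 1, 2, 3 and 5; 10, 14, 10 and 47 without GRMAC 1, 3, 4 and 5). Of the 10 members, 2 were called with DESeq2 and 1, Serpina3m, at adjusted p under 0.1. The DESeq2 run gave the members the same fold changes and adjusted p as the authors' deposited table, so the 2 sources are not separate results. No member was called under any other setting run. All 200 recomputed member fold changes kept their sign, with Itih3 between 0.06 and 0.15 and Ambp between −0.11 and −0.02. The replicate block called 81 genes and no member. With it, adjusted p in edgeR went from 0.525 to 0.191 for Serpina3k and from 0.332 to 0.115 for Lrg1. It rose for Itih1, Itih2, Itih3 and Cp. Over all tested genes, same-numbered libraries deviated together over 0.1 in 2 of 5 numbers. The best match was its own number for 2 GRflox and 2 GRMAC libraries. This does not settle whether same-numbered libraries are pairs. The Serpina3m to Serpina3k difference of −0.01 ranged from −0.11 (without GRMAC 3) to 0.13 (without GRflox 4), positive too without GRflox 3 (0.063) or GRMAC 1, 2 or 5 (0.0079, 0.027 and 0.075), and was 0.079 without both libraries 4. The Serpina3n to Serpina3k difference of −0.09 ranged from −0.18 (without GRflox 1) to 0.040 (without GRflox 4) and was 0.020 without both. Depth limits the markers below the filter and the lowest genes tested, such as Mmp9 with 5 to 16 counts per library.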
